A study of Mus musculus with 8 samples.

Results

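Of the genes that carry a cell through mitosis, 37 were followed in the hearts of *Dio3*+/+ and *Dio3*-/- mouse fetuses. They were chosen by name, as regulators of entry into mitosis, mitotic kinases, parts of the centromere, kinetochore and spindle checkpoint, spindle motors and cytokinesis factors. No measured value enters the list of names, but the choice was made with earlier results of these data known. All 37 were among the 26590 gene symbols of the deposited table, and all 37 were among the 14657 symbols with a mean above 1 RPKM (reads per kilobase of transcript, scaled to the mapped reads) in at least 1 genotype, the limit for testing. Where a gene had several transcript rows, the most abundant row by the average of both genotype means was taken, so measured levels enter the choice of row.

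RNA sequencing after removal of ribosomal RNA profiled 4 hearts of each genotype, each from an individual fetus on a C57BL/6J background. *Dio3* encodes the type 3 deiodinase, which inactivates thyroid hormones. The mutation is constitutive, so the mother's tissues aside, every fetal tissue lacks the enzyme. In these data, an effect of circulating hormone on the heart cannot be told apart from one of *Dio3* in the heart itself. The paper mentions, without showing data, very low DIO3 activity in this tissue at fetal stages. It proposes that impaired hormone clearance throughout the body affected the heart. The titles place all 8 hearts at E13.5, whereas the age field reads E18.5 for *Dio3*-/- hearts 3 and 4, and the study's methods name the day after the titles' day. The series' design text calls the fetuses male. The deposited table gives the authors' mean and coefficient of variation (SD divided by mean) for each genotype and not the value of each heart, so neither the order of single hearts nor an overlap between genotypes could be examined. The depth of each heart is unknown from these values, and the study's methods give a range and an average over the samples.

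A dividing cell enters mitosis when CDK1, bound to A- and B-type cyclins, becomes active. Spindle motors and microtubule-associated proteins then build the spindle, kinetochores attach chromosomes to it, and the spindle checkpoint holds back the anaphase-promoting complex until every chromosome is attached. In dividing cells the transcripts of these genes accumulate in G2 and M phase and fall again in G1, so in tissue they are used as markers of cycling cells. Cardiomyocytes of the fetal heart divide, together with endothelial, epicardial and mesenchymal cells, and cardiomyocytes largely leave the cell cycle soon after birth. In whole hearts a larger share of dividing cells and more RNA per dividing cell cannot be told apart.

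The *Dio3* transcript averaged 0.35 RPKM (coefficient of variation 1.23) in *Dio3*+/+ hearts and 0.13 RPKM (0.76) in *Dio3*-/- hearts, under the limit for testing, so it could not check the labels. The 5 genes responsive to thyroid hormone that were tested (*Art3*, *Dbp*, *Gpd2*, *Hr* and *Klf9*) were all higher. Their adjusted *P* values by limma ran from 5.7e-06 to 0.0078. *Hr* cleared the limit for testing only through its *Dio3*-/- mean (1.23, against 0.33 RPKM in the other genotype). *Art3*, *Dbp*, *Gpd2* and *Klf9* also appear on the study's published list, made from the same hearts, so they are no independent check of the labels. Markers of the labeled tissue and of other cells were summed in both genotypes. All 10 cardiomyocyte markers were detected, and they summed to 12010 RPKM in *Dio3*+/+ hearts and to 14431 RPKM in *Dio3*-/- hearts. The 11 erythroid markers summed to 97869 and 34010 RPKM, with 9 of 11 log2 ratios negative, a median of -1.39 and 1 called, *Hbb-bh1*, and their median coefficient of variation was 0.33 and 0.54. The 11 hepatocyte markers summed to 24.25 and 129 RPKM, all 11 positive and 0 called, with median coefficients of variation of 1.12 and 1.18. The summed levels were 283 and 302 RPKM for 8 endothelial and endocardial markers, 117 and 126 RPKM for 7 epicardial markers, 697 and 622 RPKM for 6 fibroblast and cushion markers, 42.5 and 47.0 RPKM for 7 macrophage markers, and 6.66 and 7.67 RPKM for 7 neuron and Schwann markers, and no marker was at 0 in both genotypes. Of these other markers, *Lyz2* of macrophages and *Tubb3* of neurons were called, both higher, as were 3 of the cardiomyocyte markers, *Myh6*, *Ryr2* and *Tnni3*. RPKM is relative to all mapped reads, globin reads included. The part of these markers in the results on mitosis genes was not tested.

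Transcripts of the mitosis genes had slightly higher means in *Dio3*-/- than in *Dio3*+/+ hearts, by a similar small amount for most genes. The mean was higher in *Dio3*-/- hearts for 35 of the 37 genes and lower for 2, *Pttg1* and *Nusap1*. The median difference was 11.9% of the *Dio3*+/+ mean, and the range ran from -6.42% for *Pttg1* to 19.7% for *Nek2*. Summed over the 37 genes, *Dio3*+/+ hearts had 1373 RPKM and *Dio3*-/- hearts 1518 RPKM, which is 10.6% more. Log2 fold changes on the log2(RPKM + 0.5) scale, *Dio3*-/- against *Dio3*+/+, are given from here on as log2 ratios. Their median was 0.16, with quartiles of 0.12 and 0.19. Over all genes tested the median was 0.04, with quartiles of -0.04 and 0.12, and 63.3% of genes had a positive and 36.1% a negative value, against 94.6% and 5.41% of the mitosis genes. Of the 37 genes, 28 lay above the upper quartile of all genes. Among the 7559 genes in the same range of mean level, the median was 0.05 and 69.0% were positive.

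By limma's moderated test with Benjamini-Hochberg adjustment over all rows, 1 of the 37 genes passed an adjusted *P* value of 0.05. This was *Cenpa*, which was higher in *Dio3*-/- hearts. Over all genes tested, 1.91% were called higher and 0.382% were called lower, 2.29% in either direction, so a count of 1 in 37 (2.7%) is near the background. Without adjustment, 28 of the 37 genes (75.7%) had a *P* value under 0.05 and were higher, against 15.2% of all genes, and 0 were lower, against 4.46%. For the same 28 genes, the mean of *Dio3*-/- hearts exceeded that of *Dio3*+/+ hearts by more than both SDs added together, against 12.8% of all genes. All of these genes were measured in the same 8 libraries and are not independent of each other. The 95% interval of the log2 ratio, from the same fit as the *P* values, lay above 0 for 28 genes and included 0 for 9. These are again the same 28 genes, so the counts are not separate evidence. In the row used for each gene, the highest upper bound was 0.41, for *Nek2*, a 1.33-fold difference on the scale of the log2 ratio. Larger differences lay outside the interval of that row for all 37 genes in this fit. Less abundant rows of the same genes are not covered by this bound, and a row of *Hmmr* had a log2 ratio of 0.34. With both genotypes centered on the median log2 ratio of all rows, a shift of 0.04, the median of the 37 genes was 0.12, 33 of 37 were positive, 20 had an unadjusted *P* value under 0.05 and 0 were called.

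**Figure D1:**
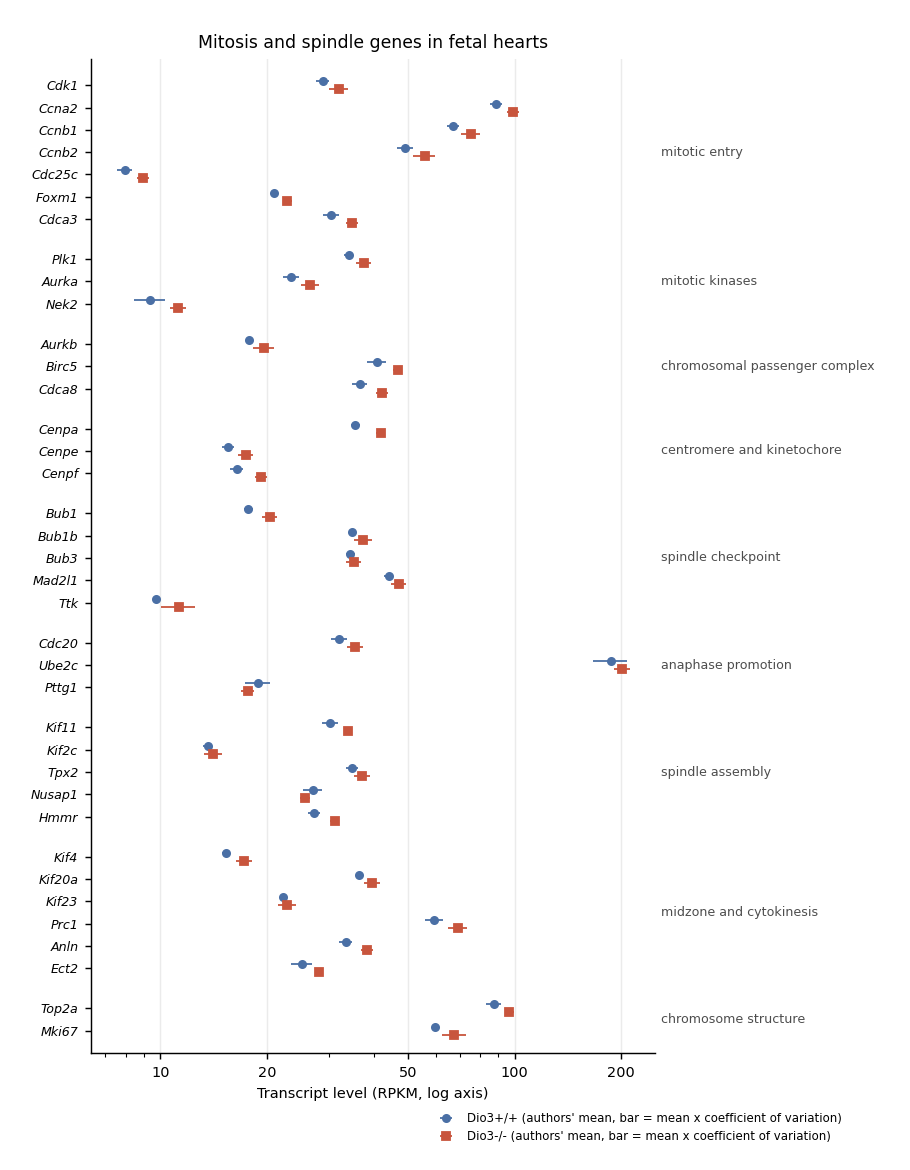
Transcript level of the 37 genes (RPKM, log axis), grouped by role, with the authors' mean for *Dio3*+/+ (circles) and *Dio3*-/- hearts (squares) and bars of the mean times the coefficient of variation on either side. The squares lie to the right of the circles for 35 genes, and *Ube2c* has the highest level in both genotypes.

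Levels of the 37 genes spanned a wide range, while their spread between hearts was narrow. The *Dio3*+/+ means ran from 7.93 RPKM for *Cdc25c* to 187 RPKM for *Ube2c*, with a median of 30.4 RPKM, and the *Dio3*-/- means from 8.96 to 201 RPKM, with a median of 34.9 RPKM. RPKM is scaled to transcript length, so these levels can be set side by side. In *Dio3*+/+ hearts, 30 of the 37 genes lay between 10 and 60 RPKM. The size of the difference did not follow the level, with a Spearman rho of -0.04 between the *Dio3*+/+ mean and the log2 ratio across the 37 genes, which share the same 8 libraries.

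The median coefficient of variation of the 37 genes was 0.04 in *Dio3*+/+ and 0.05 in *Dio3*-/- hearts. For genes in the same range of mean level, these medians were 0.07 and 0.05. The highest value in *Dio3*-/- hearts was 0.11, for *Ttk*, and 35 of the 37 genes were at or below 0.07. Of the 4 *Dio3*-/- hearts, 2 carry the later day in the age field, and no value could be given without those 2. Marker lists in the 4 *Dio3*-/- hearts had medians from 0.04 for endothelial and endocardial to 1.18 for hepatocyte markers. Whether the hearts differ in age was not tested. Among the 37 genes, the highest value in *Dio3*+/+ hearts was also 0.11, for *Ube2c*. *Mki67* was listed at 0 in *Dio3*+/+ hearts, which at 2 decimals means a value under 0.005.

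Regulators of entry into mitosis all had higher means in *Dio3*-/- hearts. All 7 had an unadjusted *P* value under 0.05 and 0 an adjusted one, and they summed to 293 RPKM in *Dio3*+/+ hearts against 329 RPKM in *Dio3*-/- hearts. *Cdk1*, the kinase that drives entry into mitosis, averaged 28.8 RPKM (coefficient of variation 0.04) and 31.9 RPKM (0.06), a log2 ratio of 0.15 (standard error, SE, 0.05, limma adjusted *P* = 0.176). Its cyclin partners were more abundant than the kinase. *Ccna2*, the A-type cyclin of S phase and early mitosis, averaged 88.8 RPKM (0.04) and 99.1 RPKM (0.04), a log2 ratio of 0.16. *Ccnb1*, a B-type cyclin, averaged 67.2 RPKM (0.04) and 75.3 RPKM (0.06), and *Ccnb2* had 49.1 RPKM (0.05) and 55.7 RPKM (0.07), with log2 ratios of 0.16 and 0.18. The 3 cyclins thus kept the order *Ccna2*, *Ccnb1*, *Ccnb2* in both genotypes, and each difference between neighbors was larger than the SDs. *Cdc25c*, a phosphatase that activates CDK1, was the least abundant of the 37, with 7.93 RPKM (0.05) and 8.96 RPKM (0.04), a log2 ratio of 0.17. *Foxm1*, the transcription factor of many G2 and M phase genes, had 21.0 RPKM (0.02) and 22.9 RPKM (0.03), a log2 ratio of 0.12 (limma adjusted *P* = 0.158). *Cdca3*, which takes part in the degradation of the CDK1 inhibitor WEE1, averaged 30.4 RPKM (0.05) and 34.9 RPKM (0.04) and had the highest log2 ratio of this group, 0.20 (SE 0.05, limma adjusted *P* = 0.077).

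The mitotic kinases were likewise higher by their means. *Plk1*, which acts in spindle assembly and mitotic exit, averaged 34.0 RPKM (0.03) and 37.5 RPKM (0.05), a log2 ratio of 0.14. *Aurka*, a kinase of the spindle poles, had 23.4 RPKM (0.05) and 26.5 RPKM (0.06), a log2 ratio of 0.18. *Nek2*, a kinase that separates the centrosomes, had 9.38 RPKM (0.10) and 11.2 RPKM (0.05), which gives the highest log2 ratio of the 37 genes, 0.25 (SE 0.07, limma adjusted *P* = 0.107). Its coefficient of variation in *Dio3*+/+ hearts was exceeded only by that of *Ube2c* among the 37 genes.

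The chromosomal passenger complex corrects faulty attachments and later guides cytokinesis. Its kinase, *Aurkb*, had a log2 ratio of 0.14 (limma adjusted *P* = 0.217), with means of 17.8 RPKM (0.02) and 19.6 RPKM (0.07). The other 2 subunits followed here also had higher means. *Birc5*, which encodes survivin, averaged 40.8 RPKM (0.06) and 46.8 RPKM (0.03), a log2 ratio of 0.19 (limma adjusted *P* = 0.084). *Cdca8*, which encodes borealin, averaged 36.6 RPKM (0.05) and 42.4 RPKM (0.04), a log2 ratio of 0.21 (limma adjusted *P* = 0.065).

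The centromere and kinetochore genes had the highest median log2 ratio of the role groups, 0.22, on 3 genes. For 31 kinetochore genes outside the 37, the median was 0.11. *Cenpa*, the histone H3 variant that marks the centromere, rose from 35.5 RPKM (0.03) in *Dio3*+/+ hearts to 41.9 RPKM (0.03) in those lacking *Dio3*, a log2 ratio of 0.24 (SE 0.04, 95% interval 0.14 to 0.33, limma adjusted *P* = 0.029). The gap of 6.38 RPKM exceeded both SDs added together. Its adjusted *P* value was just above the threshold with Welch's test (0.070), without a mean-variance trend (0.051), with the coefficients of variation raised by their rounding error (0.054) and with both genotypes centered on the median log2 ratio of all rows (0.067). *Cenpf*, a large kinetochore protein, averaged 16.4 RPKM (0.04) and 19.2 RPKM (0.04), a log2 ratio of 0.22 (SE 0.05, limma adjusted *P* = 0.055). *Cenpe*, a kinesin of the kinetochore, averaged 15.6 RPKM (0.04) and 17.4 RPKM (0.05), a log2 ratio of 0.16 (limma adjusted *P* = 0.142).

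Of the 5 spindle checkpoint genes, 2 had an unadjusted *P* value under 0.05, *Bub1* and *Ttk*. Differences between genes were not tested. *Bub1*, a checkpoint kinase at the kinetochore, averaged 17.7 RPKM (0.03) and 20.4 RPKM (0.05), a log2 ratio of 0.19 (limma adjusted *P* = 0.075). *Ttk*, the kinase at the head of the checkpoint, had 9.71 RPKM (0.02) and 11.3 RPKM (0.11), a log2 ratio of 0.21. The intervals of the other 3 included 0 and overlapped with those of *Bub1* and *Ttk*. *Mad2l1*, which encodes the inhibitor MAD2, had 44.1 RPKM (0.03) and 47.1 RPKM (0.05), a log2 ratio of 0.09 (95% interval -0.01 to 0.20). *Bub1b*, which encodes BUBR1, a further part of the inhibitory complex, had 34.8 RPKM (0.02) and 37.4 RPKM (0.06), a log2 ratio of 0.10. *Bub3*, a checkpoint protein with additional roles outside mitosis, had 34.4 RPKM (0.03) and 35.2 RPKM (0.05), a log2 ratio of 0.03 (95% interval -0.08 to 0.14), and turned negative (-0.0064) when both genotypes were centered.

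Among the genes that promote anaphase, *Cdc20*, the activator of the anaphase-promoting complex, averaged 32.0 RPKM (0.05) and 35.5 RPKM (0.05), a log2 ratio of 0.15 (limma adjusted *P* = 0.182). *Ube2c*, the ubiquitin-conjugating enzyme of that complex, was the most abundant of the 37 genes, with 187 RPKM (0.11) and 201 RPKM (0.05), and its log2 ratio of 0.10 had an interval from -0.07 to 0.28. *Pttg1*, which encodes securin, the inhibitor that must be degraded before sister chromatids part, was lower in *Dio3*-/- hearts by its means, 18.9 RPKM (0.08) and 17.7 RPKM (0.04). Its log2 ratio of -0.09 (SE 0.06, 95% interval -0.23 to 0.05, limma adjusted *P* = 0.473) did not pass the test.

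The genes of spindle assembly had a median log2 ratio of 0.09. *Kif11*, the motor that pushes the spindle poles apart, averaged 30.2 RPKM (0.05) and 33.9 RPKM (0.02), a log2 ratio of 0.17 (limma adjusted *P* = 0.098). *Hmmr*, a microtubule-associated protein of the spindle poles, had 27.2 RPKM (0.04) and 31.1 RPKM (0.03) and a log2 ratio of 0.19 (limma adjusted *P* = 0.065). The remaining genes of this group had intervals that included 0. *Tpx2*, which activates Aurora A on the spindle, averaged 34.9 RPKM (0.04) and 37.1 RPKM (0.05), a log2 ratio of 0.09. *Kif2c*, a kinesin that depolymerizes microtubules, averaged 13.6 RPKM (0.03) and 14.1 RPKM (0.06), a log2 ratio of 0.05. *Nusap1*, a protein that bundles spindle microtubules, was lower by its means, with 27.0 RPKM (0.06) and 25.6 RPKM (0.03), a log2 ratio of -0.07 (SE 0.05, 95% interval -0.19 to 0.05, limma adjusted *P* = 0.519).

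Genes of the spindle midzone and of cytokinesis were higher by their means in all 6 cases. *Prc1*, which crosslinks midzone microtubules, had 59.4 RPKM (0.06) and 69.2 RPKM (0.06), a log2 ratio of 0.22 (SE 0.06, limma adjusted *P* = 0.087). *Anln*, a scaffold of the contractile ring, had 33.4 RPKM (0.04) and 38.3 RPKM (0.04), a log2 ratio of 0.20 (limma adjusted *P* = 0.066). *Ect2*, which activates RhoA at the division site, averaged 25.1 RPKM (0.07) and 28.0 RPKM (0.01), a log2 ratio of 0.15. The group holds 3 kinesins, whose intervals overlapped. *Kif4*, bound to chromosomes, averaged 15.3 RPKM (0.02) and 17.3 RPKM (0.05), a log2 ratio of 0.17, and *Kif20a*, of the midzone, averaged 36.4 RPKM (0.02) and 39.7 RPKM (0.05), a log2 ratio of 0.12. *Kif23*, a motor subunit of centralspindlin, had nearly equal means of 22.3 RPKM (0.02) and 22.8 RPKM (0.06), and its log2 ratio of 0.03 turned to -0.0047 when both genotypes were centered. *Top2a*, the topoisomerase that untangles sister chromatids, had 87.3 RPKM (0.05) and 96.6 RPKM (0.03), a log2 ratio of 0.15. *Mki67*, which coats mitotic chromosomes and is the standard marker of cycling cells, had 59.7 and 67.6 RPKM (0.08 in *Dio3*-/- hearts), a log2 ratio of 0.18 (limma adjusted *P* = 0.133).

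**Figure D2:**
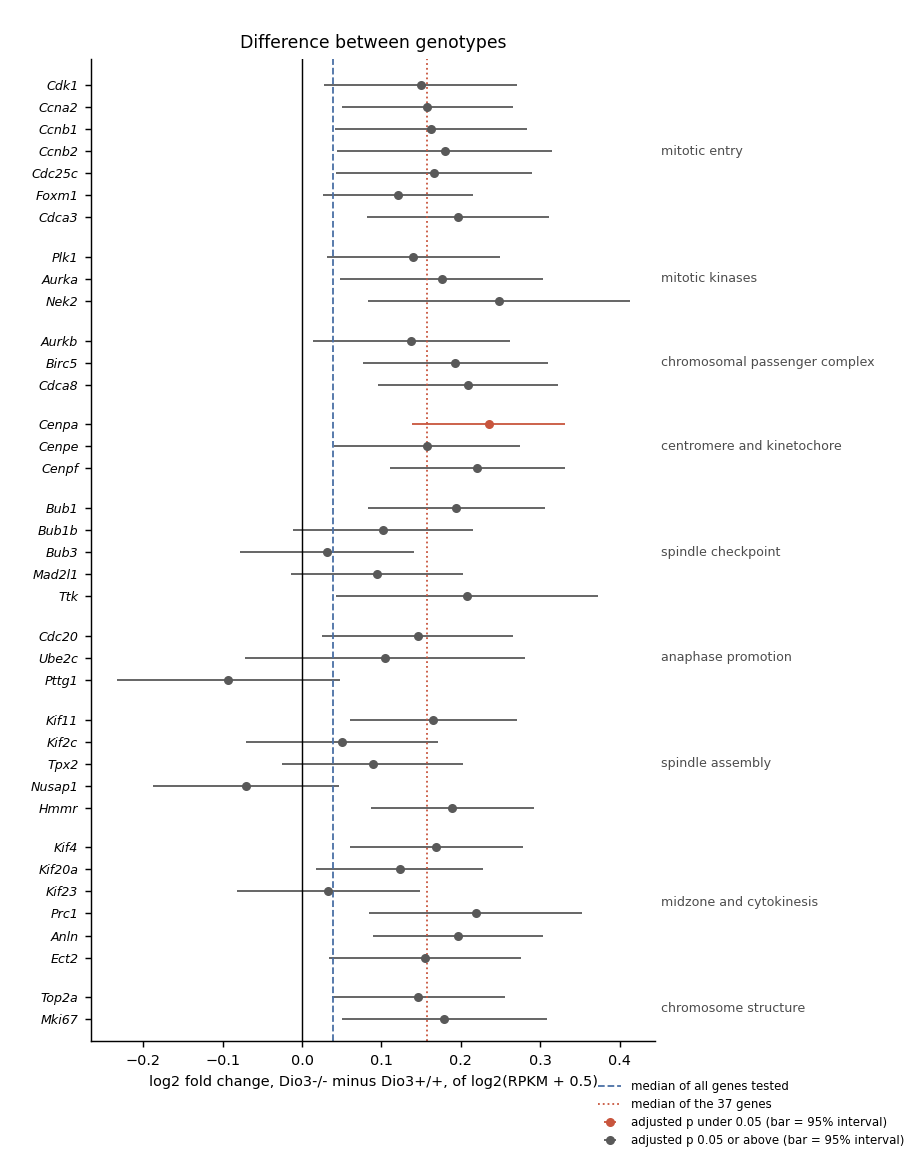
Log2 ratio of each gene, *Dio3*-/- minus *Dio3*+/+, of log2(RPKM + 0.5), with 95% intervals from limma. The dashed line is the median of all genes tested (0.04) and the dotted line the median of the 37 genes (0.16). *Cenpa* has an adjusted *P* value under 0.05, and 28 intervals lie above 0.

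Most of these genes have several transcript rows, which overlap and can share reads. The 37 symbols had 83 rows above the limit, and 24 symbols had more than 1 row, up to 7 for *Prc1*. The log2 ratio was positive in 77 rows and negative in 6. Rows of the same gene pointed both ways for *Kif2c* and *Kif23*, and the other negative rows were those of *Pttg1* and *Nusap1*. Of the 83 rows, 4 (4.82%) passed an adjusted *P* value of 0.05 by limma, all higher, against 1.88% of all 32703 rows tested. Beside the row of *Cenpa*, these were rows with lower levels than the ones used above. The lower of the *Cenpf* rows averaged 15.4 and 18.1 RPKM (limma adjusted *P* = 0.046), and a pair of *Hmmr* rows passed, with a log2 ratio of 0.28 (means of 6.27 and 7.70 RPKM, limma adjusted *P* = 0.033) and of 0.34 (means of 8.35 and 10.7 RPKM, limma adjusted *P* = 0.037). The 5 rows of *Hmmr* thus ranged from 0.19 in the row with the highest level to 0.34, and whether they stand for different transcripts was not tested. With any row counted, 3 of the 37 genes (8.11%) were called, against 2.16% of all genes under the same rule. All 3, *Cenpa*, *Cenpf* and *Hmmr*, are on the study's own list of differing genes from these data. The 37 genes were chosen with earlier results of these data known, so this share is no independent support.

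Other genes of mitosis, from lists of kinetochore, cohesin and condensin, anaphase-promoting complex, spindle pole, cytokinesis and CDK1 control genes, had smaller differences in the same direction by their median. Of 134 genes tested, 114 had a positive log2 ratio and 19 a negative one, and the median was 0.09. Of these, 2 (1.49%) passed the adjusted threshold by limma as higher and 0 as lower, again near the background of 1.91%. Without adjustment, 39 of the 134 genes had a *P* value under 0.05 and were higher, against 2229 of all 14657 genes (15.2%). At the same threshold 1 was lower, against 4.46%, namely *Cdc25b*, an activator of CDK1 (21.3 and 16.3 RPKM, a log2 ratio of -0.37). The called genes were *Nuf2*, a subunit of the microtubule-binding NDC80 complex, and *E2f1*, a transcription factor of S phase genes. *Nuf2* averaged 17.2 RPKM (0.01) and 20.4 RPKM (0.06), a log2 ratio of 0.24 (SE 0.05, limma adjusted *P* = 0.045). *E2f1* had 9.21 RPKM (0.02) and 10.8 RPKM (0.03) and a log2 ratio of 0.22 (SE 0.05, limma adjusted *P* = 0.044). Both calls were lost without an expression filter, without a mean-variance trend, with Welch's test, with centering and with raised coefficients of variation.

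By list, the median log2 ratio was 0.11 for 31 kinetochore genes, 0.10 for 31 other kinesins and spindle pole genes, 0.09 for 11 cytokinesis genes, 0.08 for 23 genes of CDK1 control and transcription, 0.08 for 22 cohesin and condensin genes and 0.04 for 16 genes of the anaphase-promoting complex. The last lies close to the median of all genes, 0.04. In the lists with no called gene, the highest values were those of *Cep55*, an abscission factor (0.23), *Kifc1*, a minus-end kinesin (0.22), *Ncapd3*, a condensin II subunit (0.21), and *Fbxo5*, an inhibitor of the anaphase-promoting complex (0.15). The lowest values in the same lists were those of *Sgo1*, a protector of centromeric cohesion (-0.12), *Anapc2*, the cullin of the anaphase-promoting complex (-0.10), *Kif2a*, a kinesin that shortens microtubules (-0.06), and *Tsg101*, an ESCRT subunit (-0.05). *Sgo1* and *Sgol1* (0.12) are newer and older symbols of the same gene with separate rows, as are *Orc1* and *Orc1l* among the DNA replication genes below, and each symbol was counted.

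The neighboring steps of the cell cycle differed in direction by their medians. For 43 DNA replication and nucleotide supply genes the median log2 ratio was 0.11, with 40 positive and 3 negative (*Chaf1b*, *Pold1* and *Rfc3*). Unadjusted *P* values under 0.05 by limma were found for 15 of the 43 as higher and 0 as lower, against 15.2% and 4.46% of all genes. Of the 43 genes, 1 was called, near the 1.91% of all genes called higher. It was *Rrm2*, the regulated subunit of ribonucleotide reductase, with means of 65.0 RPKM (0.06) and 80.4 RPKM (0.05) and a log2 ratio of 0.30 (SE 0.06, limma adjusted *P* = 0.032), a call that was lost with Welch's test, centering and raised coefficients of variation. For 12 CDK inhibitors, D cyclins and related genes the median was -0.05, with 3 positive (*Cdkn1b*, *Cdkn2c* and *Cdkn2d*) and 9 negative and 0 called. The lowest was *Cdkn1c*, which encodes the CDK inhibitor p57, with 342 RPKM (0.25) and 252 RPKM (0.07), a log2 ratio of -0.44 (SE 0.15, limma adjusted *P* = 0.160), and the highest was *Cdkn2d* (0.29, limma adjusted *P* = 0.062). No difference between lists was tested.

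**Figure D3:**
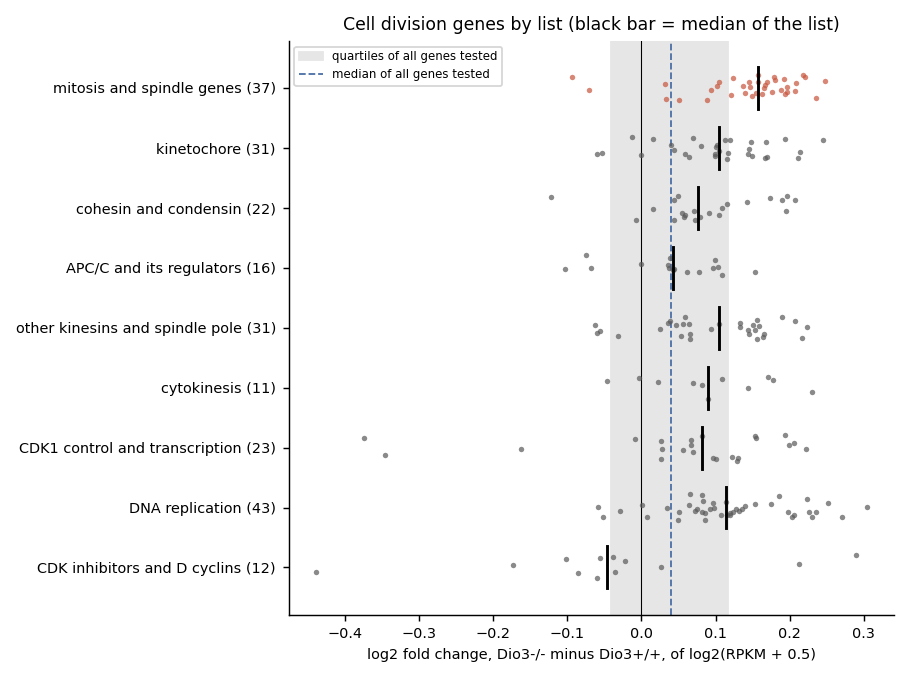
Log2 ratio of every tested gene of each list, with the number of genes in parentheses, *Dio3*-/- minus *Dio3*+/+, of log2(RPKM + 0.5). Points are genes, black bars list medians, and the gray band the quartiles of all genes tested (-0.04 to 0.12). The median of the 37 mitosis genes (0.16) lies above the band and that of CDK inhibitors and D cyclins (-0.05) below it.

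Genes of G2 and M phase are known to share promoter elements, the cell cycle genes homology region (CHR) and, upstream of it, CCAAT boxes bound by the factor NF-Y. The CHR is bound by the MuvB complexes that repress these genes in quiescent cells and, with B-MYB and FOXM1, activate them late in the cycle. The promoters of the 37 genes were searched for both. These genes were chosen by name from this class, so a high share of either element follows from the choice. It says nothing about the genotypes. RefSeq promoter windows of build GRCm38.p6, from 250 bases before to 50 bases after an annotated gene start, were used for 31 of the 37 genes, all but *Aurkb*, *Ccna2*, *Cdc25c*, *Foxm1*, *Kif20a* and *Tpx2*. The build of the deposited table is not named, and the windows were matched by symbol. The CHR was searched as TTTGAA and TTCGAA, and the CCAAT box as CCAAT, all on both strands. A gene was counted once when any of its windows held a match. TTTGAA and TTCGAA differ at 1 base and cannot match at the same position, and a CHR and a CCAAT match can share an end base.

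The CHR letters were found in 24 of 31 genes (77.4%), against 21.7% of all 27025 genes with a window and 16% of the 8950 that were tested in these hearts. CCAAT was found in 25 of 31 (80.6%), against 41.1% of all and 43.2% of tested genes, and at least 2 copies in 19 (61.3%), against 13.3% and 16.9%. Both elements were found in 22 (71%), against 8.61% and 6.76%. Of 33 CHR matches, counted in 1 window per gene, 23 (69.7%) were centered within 50 bases of the annotated start, against 26.1% of the matches in all windows, and 60 of 62 CCAAT matches (96.8%) were centered upstream of it, against 89.3% of the matches in all windows, of whose length 83.3% is upstream. For 4 genes (*Aurka*, *Cdca3*, *Kif2c* and *Mad2l1*) the end of the window was not found near the start of a GENCODE transcript of the gene. Without them, 21 of 30 CHR matches were within 50 bases and 55 of 57 CCAAT matches upstream. The 5 windows below show the gene that passed the test, a cyclin and a spindle gene with both elements, and the pair of genes with negative log2 ratios. Capitals mark CHR and CCAAT matches, the latter as CCAAT or, on the other strand, ATTGG.
Cenpa: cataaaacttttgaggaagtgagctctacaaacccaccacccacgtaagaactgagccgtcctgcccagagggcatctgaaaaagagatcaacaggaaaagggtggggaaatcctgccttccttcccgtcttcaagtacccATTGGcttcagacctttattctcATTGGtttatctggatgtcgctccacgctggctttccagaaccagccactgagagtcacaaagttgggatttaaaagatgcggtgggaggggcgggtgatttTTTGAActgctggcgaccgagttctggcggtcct
Ccnb2: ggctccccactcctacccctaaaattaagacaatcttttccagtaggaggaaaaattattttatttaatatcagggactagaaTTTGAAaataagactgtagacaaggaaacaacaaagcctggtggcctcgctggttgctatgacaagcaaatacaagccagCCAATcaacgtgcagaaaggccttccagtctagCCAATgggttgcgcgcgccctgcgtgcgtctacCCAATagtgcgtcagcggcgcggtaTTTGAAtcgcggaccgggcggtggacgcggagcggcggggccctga
Hmmr: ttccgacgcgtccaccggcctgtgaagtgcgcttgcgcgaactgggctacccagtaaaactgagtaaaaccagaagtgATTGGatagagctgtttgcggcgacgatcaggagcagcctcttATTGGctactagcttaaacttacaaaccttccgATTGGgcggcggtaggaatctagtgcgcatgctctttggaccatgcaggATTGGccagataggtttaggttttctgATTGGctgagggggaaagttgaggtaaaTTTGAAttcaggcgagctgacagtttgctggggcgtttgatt
Pttg1: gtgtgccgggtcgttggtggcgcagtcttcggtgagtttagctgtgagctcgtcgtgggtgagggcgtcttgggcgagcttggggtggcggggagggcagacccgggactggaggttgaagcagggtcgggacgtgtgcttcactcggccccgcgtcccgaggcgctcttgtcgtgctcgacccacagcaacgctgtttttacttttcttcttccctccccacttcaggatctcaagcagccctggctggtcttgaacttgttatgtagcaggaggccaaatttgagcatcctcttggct
Nusap1: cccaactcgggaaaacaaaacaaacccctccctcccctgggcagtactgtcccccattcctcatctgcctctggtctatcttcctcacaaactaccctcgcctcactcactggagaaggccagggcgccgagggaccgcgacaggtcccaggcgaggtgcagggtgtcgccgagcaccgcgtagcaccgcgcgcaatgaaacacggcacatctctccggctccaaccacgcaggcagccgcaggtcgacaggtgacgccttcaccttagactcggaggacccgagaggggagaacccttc

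*Cenpa* (chr5:30666636-30666935, plus strand) has 2 CCAAT matches and 1 CHR match downstream of them, and *Ccnb2* (chr9:70421505-70421804, minus strand) has 3 CCAAT matches, with 1 CHR match upstream and 1 downstream of them. *Hmmr* (chr11:40733388-40733687, minus strand) has 5 CCAAT matches and 1 CHR match. *Pttg1* (chr11:43425932-43426231, minus strand) and *Nusap1* (chr2:119618048-119618347, plus strand), the genes with negative log2 ratios, hold neither in these windows, and neither do *Birc5* and *Mad2l1*, whose log2 ratios were 0.19 and 0.09, the latter in a window not matched to a transcript start. The 22 genes with both elements had log2 ratios from 0.03 to 0.24, with a median of 0.17. The other 9 ranged from -0.09 to 0.25, with a median of 0.16, so the medians were close and *Nek2*, the highest of all, has CCAAT matches without a CHR match. The absence of a match says only that these letters are not in this window, and a match is a run of letters and not evidence that a factor is bound in these hearts.

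**Figure D4:**
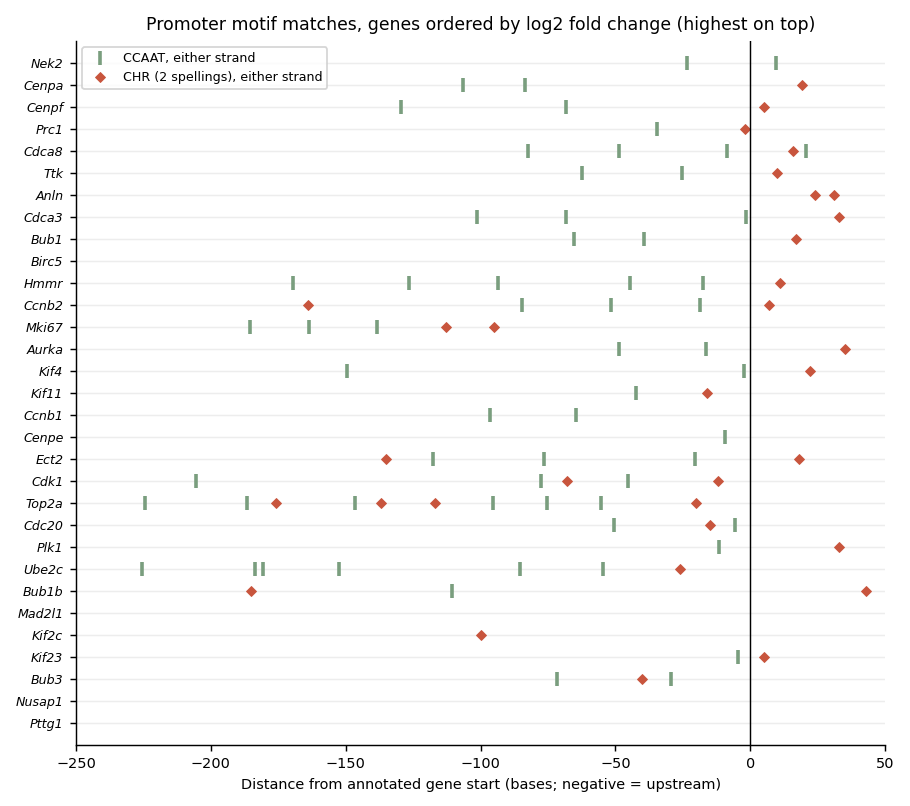
Position of CHR matches (diamonds) and CCAAT matches (bars) on either strand, as distance in bases from the annotated gene start, in 1 promoter window for each of 31 genes, ordered by log2 ratio with the highest on top. Of the CHR matches, 23 of 33 lie within 50 bases of the start, and 60 of 62 CCAAT matches (96.8%) lie upstream, against 89.3% in all windows. *Birc5*, *Mad2l1*, *Nusap1* and *Pttg1* have neither.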

How the data were processed

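RNA was measured in 8 hearts, 4 per genotype. Single-end reads were aligned by the authors using Novoalign (version 2.08 in the submitters' processing notes), who kept uniquely mapping reads and normalized samples by linear scaling down to the smallest library. The genome build is not given in the sources used here. The deposited table has 51414 rows, each a UCSC known-gene transcript. Genotype means were deposited by the authors and are read here as RPKM, the unit of the expression filter in the study's methods. The coefficient of variation, a ratio of SD to mean, was also calculated by the authors, and both are rounded to 2 decimals. The table further holds fold changes and *q* values of the authors' own comparison, which were not used. The study's published list, by Welch's test with a stated *q* under 0.05, includes *Birc5*, *Cdc20*, *Cenpa*, *Cenpf* and *Hmmr*. The legend of its heatmap names *P* under 0.05 instead. Of these genes, only *Cenpa* passed the adjusted threshold here in the row used for each gene. The unadjusted limma *P* values of these genes ran from 0.00032 for *Cenpa* to 0.023 for *Cdc20*. Welch's test with adjustment called 27 genes higher and 0 lower here. The cutoffs may therefore not match, so the remaining genes are not shown to have failed at an equal threshold.

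Means were transformed to log2(RPKM + 0.5). SDs were approximated on this scale from the coefficients of variation, and limma (3.58.1, in R 4.3.3) moderated the pooled variances toward a trend on the mean, with 6 residual and 3.52 prior degrees of freedom. The log of a group mean stands for the mean log, an approximation that is least reliable where hearts vary widely. *P* values are two-sided and were adjusted by the Benjamini-Hochberg method across 32703 rows, those above 1 RPKM in either genotype. Counts over all genes use 1 row per symbol, the row with the highest mean. The labels do not say which hearts shared a litter.

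The 37 genes, the lists and the tests were chosen with earlier results of these data known. The rule for named genes took all 37, the called genes of each further list or else its highest and lowest, *Dio3*, 5 hormone-responsive genes and marker lists. Beyond it, *Sgol1*, *Orc1*, *Orc1l*, *Cdc25b*, *Chaf1b*, *Pold1*, *Rfc3*, *Cdkn1b* and *Cdkn2c* were named after their values were seen. Alternatives were other pseudocounts (0.1 and 1), no filter, a mean above 5 RPKM, no trend, 1 row per gene, Welch's test, centering, raised coefficients of variation (by 0.005) and other choices of row. Promoter windows came from RefSeq, and summaries used Python 3.11.15.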

Additional observations from a re-analysis of the deposited data

How the results depend on the processing

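The mitosis genes kept their direction under the alternatives, except *Bub3* and *Kif23*, and the calls depended on them. The median log2 fold change of the 37 genes was 0.16, and from 0.12 to 0.16 under the alternatives, and 35 of 37 were positive in each of them except centering, with 33. With centering *Bub3* turned to -0.0064 and *Kif23* to -0.0047. The number of the 37 genes called was 1, and 0 with Welch's test, without a mean-variance trend, with centering and with raised coefficients of variation, 2 with a mean above 5 RPKM, where *Cenpf* joined *Cenpa* and the share of all genes called higher was 3.11%, against 1.91%, and 3 with any row of a symbol. The adjusted *P* value of *Cenpa* by limma or Welch's test ran from 0.025 to 0.070. The further genes of cell division had 2 calls, and 0 without an expression filter, without a trend, with Welch's test, with centering and with raised coefficients of variation. The DNA replication genes had 1 call, 2 with a mean above 5 RPKM, and 0 with Welch's test, centering and raised coefficients of variation, and the CDK inhibitors and D cyclins had 0 calls and 1 with a mean above 5 RPKM. Over all genes the calls went from 280 higher and 56 lower to 316 and 66 with a mean above 5 RPKM, 27 and 0 with Welch's test, 129 and 51 with centering, 157 and 30 with raised coefficients of variation and 168 and 29 without a filter. The causes were not tested. No paired analysis was possible because the table holds genotype means and no values for single hearts, and for the same reason no heart could be left out. Precision is limited by 4 hearts per genotype, with standard errors of the 37 genes from 0.04 to 0.08 on the log2 scale.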
